A study of Mus musculus with 6 samples.

Results

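Elastic fibres give skin, lung and large arteries their recoil. They are built on a scaffold of microfibrils, polymers of fibrillin with associated glycoproteins, onto which tropoelastin is laid with the help of fibulins and then cross-linked by lysyl oxidase. Fibroblasts are among the cells that secrete these components, and TIA1 and TIAR, the proteins missing in the knockouts, are RNA-binding proteins that act on splicing, mRNA stability and translation. The 10 genes followed here, of 34797 gene names on the array, are those of the fibrillins (Fbn1, Fbn2), the microfibril glycoprotein MAGP-2 (Mfap5), elastin (Eln), the fibulins (Fbln1, Fbln2, Fbln5, Efemp1, Efemp2) and lysyl oxidase (Lox). They were chosen by gene symbol and are measured by 15 of the 55681 probes, 4 genes by more than 1 probe. Fbn2, Efemp1 and Fbln5 entered the group because they were known to change in these same arrays, so their values are given as a description and without a test. The group as a whole was put together with earlier results of these arrays known, so the counts over the other 7 genes are not independent evidence of a direction.

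The data were collected from immortalized murine embryonic fibroblasts (MEF), cells grown out of mouse embryos and adapted to continuous culture. RNA of wild-type (WT) MEF, labelled as strain W4, of MEF knocked out (KO) for TIA1, labelled BALB/c, and of MEF knocked out for TIAR, labelled C57BL/6, was hybridized to 1-colour Agilent arrays, 2 for each group from independent experiments and 6 in all. Genotype, strain and cell line therefore cannot be told apart, and p-values measure only the spread between these samples. The sources used here do not give the number of embryos or clones behind each line. All 6 arrays lay on 1 slide, with the TIA1 KO arrays in a row of their own, so slide row and TIA1 loss cannot be told apart either. The TIA1 KO arrays were also brighter, with a median intensity of gene spots, before background correction, of 458 and 218, against 152 and 140 for WT and 136 and 119 for TIAR KO MEF. They had fewer probes rated well above background by the scanner software, 16000 and 19920, against 23531 and 26254 for WT and 24754 and 25985 for TIAR KO MEF.

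The labels were checked on the deleted genes first. Tia1 gave normalized log2 intensities of 10.72 and 8.54 in WT, 7.87 and 8.44 in TIA1 KO and 9.56 and 9.58 in TIAR KO MEF. Its change of -1.47 ± 0.79 (log2 fold change ± SE, n = 2 arrays per group) in TIA1 KO MEF did not pass the test in limma (adjusted p = 0.288). A second Tia1 probe gave 9.56 and 9.90 in WT and 7.57 and 8.65 in TIA1 KO MEF (-1.62 ± 0.42, limma adjusted p = 0.116). The dimmest probe, not well above background in WT MEF, gave 7.44 and 7.25 in WT and 7.88 and 8.54 in TIA1 KO MEF (0.87 ± 0.28, limma adjusted p = 0.149). The deleted gene was thus lower on both TIA1 KO arrays by 2 of its 3 probes, and none of the 3 passed the test. For Tial1, which encodes TIAR, the probe measured on all arrays gave 11.71 and 11.09 in WT, 11.85 and 11.49 in TIA1 KO and 10.00 and 9.65 in TIAR KO MEF, a fall of 1.58 ± 0.26 on the log2 scale in TIAR KO MEF (limma adjusted p = 0.0254). The brighter Tial1 probe, with 1 WT spot left out as an outlier, changed by -2.63 ± 0.87 (adjusted p = 0.200). Where these probes lie relative to the deleted exons is not known here. Gapdh, a glycolytic enzyme used as a reference, differed from WT by -0.04 (TIA1 KO) and 0.09 (TIAR KO) on the brightest of its 8 probes. The other Gapdh probes, except the dimmest, had lower means than WT on the TIA1 KO arrays. The widest of these gaps was between 18.12 (WT) and 17.72 (TIA1 KO). On the TIAR KO arrays the other probes went both ways, and their widest gap was between 17.25 (WT) and 16.95 (TIAR KO).

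Sequences upstream of the start were found in RefSeq (GRCm38.p6) for 6 of the 10 genes, Fbn1, Fbln1, Fbln2, Fbln5, Efemp1 and Efemp2, with 10 promoters in all. Those of 3 fibulin genes are shown because these genes had the largest log2 fold changes among the fibulins in TIA1 KO MEF, so that their upstream regions can be read side by side. Each is the 250 bases before the start, 5′ to 3′ on the strand of the gene, and capitals mark a GC box (GGGCGG, or CCGCCC where it lies on the other strand), the letters that transcription factors of the Sp family recognise. The Efemp1 sequence is from chr11:28852955-28853204 on the plus strand, that of Fbln2 from chr6:91212514-91212763 on the plus strand and that of Fbln5 from chr12:101819120-101819369 on the minus strand.
Efemp1: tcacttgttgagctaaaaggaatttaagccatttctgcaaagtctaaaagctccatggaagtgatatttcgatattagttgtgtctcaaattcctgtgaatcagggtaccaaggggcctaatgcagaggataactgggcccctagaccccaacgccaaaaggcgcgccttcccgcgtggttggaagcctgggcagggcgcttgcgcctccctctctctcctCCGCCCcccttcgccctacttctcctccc
Fbln2: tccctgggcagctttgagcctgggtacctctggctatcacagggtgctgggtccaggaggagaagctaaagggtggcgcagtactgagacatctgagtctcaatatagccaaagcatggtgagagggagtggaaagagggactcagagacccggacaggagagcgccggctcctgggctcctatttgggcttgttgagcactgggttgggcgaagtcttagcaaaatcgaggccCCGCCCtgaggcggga
Fbln5: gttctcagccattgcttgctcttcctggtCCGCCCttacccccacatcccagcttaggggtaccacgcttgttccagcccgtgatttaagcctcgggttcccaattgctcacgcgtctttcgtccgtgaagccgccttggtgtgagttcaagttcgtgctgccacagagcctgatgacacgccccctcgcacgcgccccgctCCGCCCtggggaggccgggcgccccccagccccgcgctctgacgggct
Efemp1 and Fbln2 held 1 GC box each in these bases and Fbln5 held 2. A second Fbln5 promoter, at chr12:101818485-101818734 on the minus strand, held none. A GC box was present in 8 of the 10 promoters and in at least 1 promoter of all 6 genes, and in 32.7% of the 32851 mouse promoters of the same length. The 10 are not independent, since 2 promoters of Fbln1 and 2 of Efemp2 overlap, and 8 of them lie above the median GC content of all promoters, 52.4%. None of the 10 promoters held a TATA box (TATAAA, in 12.4% of all promoters), an AP-1 site (TGACTCA, 4.46%), a SMAD box (GTCTAGAC, 0.167%) or a serum response CArG box (1.47%), each searched on both strands. The motifs do not overlap one another in the 3 sequences shown.

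Elastin itself was not higher than WT in either knockout, but the other 9 genes were higher in both, except that Efemp2 turned to -0.02 in TIA1 KO MEF when the arrays were only scaled to a common median. The 7 tested genes had a median log2 fold change of 2.50 in TIA1 KO MEF, against -0.09 over all probes, and of 1.59 in TIAR KO MEF, against -0.02. Of the 7 genes that were tested, 5 rose in TIA1 KO MEF (Fbn1, Fbln1, Fbln2, Lox and Mfap5), none fell and 2 (Efemp2 and Eln) did not pass, at a limma adjusted p below 0.05 and more than a 2-fold change. Of all probes, 3.54% were called in this comparison, 2.18% higher, or 7.54% of those well above background in a group. In TIAR KO MEF 6 of the 7 rose, the same 5 and Efemp2, and Eln did not pass, while 5.76% of all probes were called, 3.39% higher, or 12.7% of those well above background. These are comparisons of RNA from whole cultures, in which more RNA per cell and more cells making it cannot be told apart. In TIA1 KO MEF no probe on the array was called once either WT array was left out, and in TIAR KO MEF 3 of the 7 (Fbln2, Lox and Mfap5) were called without the first TIAR KO array and 4 (Fbn1 as well) without the second. The sizes moved little, and with any 1 array left out the TIA1 KO change of Fbn1 stayed between 2.32 and 2.67. Those of Fbln1 and Fbln2 stayed between 1.84 and 1.97 and between 5.17 and 5.40. Lox stayed between 4.21 and 4.47 and Mfap5 between 7.38 and 7.82. Eln turned to 1.77 in TIA1 KO MEF with the processed signal of the scanner software, below the median of 1.98 over all probes in that setting.

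**Figure D1:**
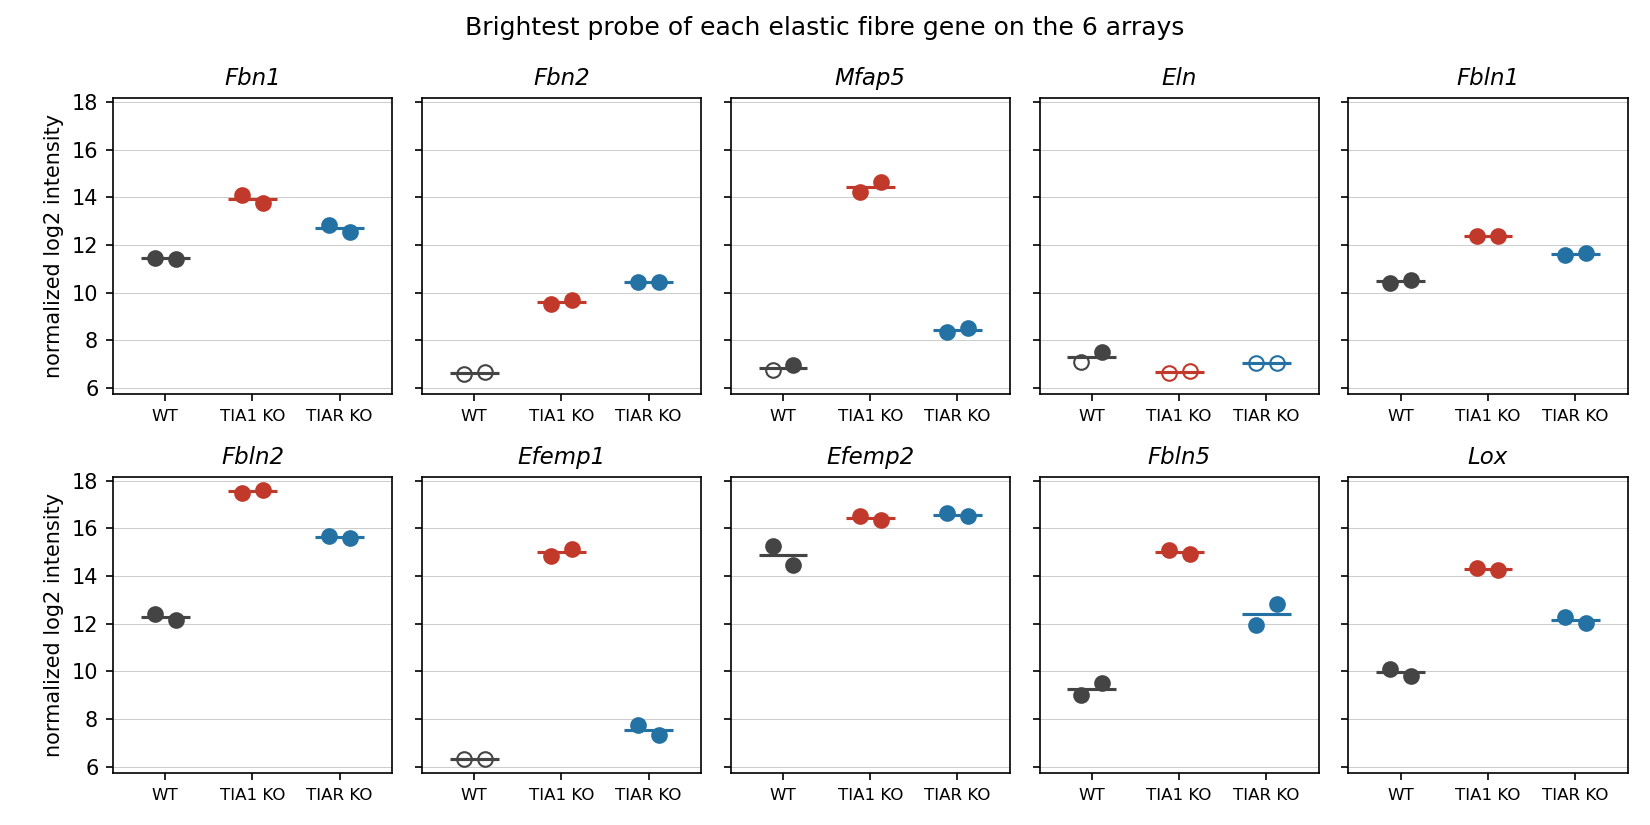
Normalized log2 intensity (y axis) of the brightest probe of each of the 10 genes on the 2 arrays of each group (x axis). Filled points were rated well above background and hollow ones were not, and bars are group means. In 7 genes the arrays stand in the order WT, TIAR KO, TIA1 KO without overlap, whereas Eln lies near background throughout.

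The fibrillins form the backbone of the microfibril. Fbn1 (probe at chr2:125126727-125126786, mm9) gave 11.47 and 11.40 in WT, 14.11 and 13.75 in TIA1 KO and 12.83 and 12.56 in TIAR KO MEF, all well above background. The 3 groups did not overlap, and WT MEF were lowest. Fbn1 rose 5.64-fold in TIA1 KO MEF (log2 fold change 2.50 ± 0.19, limma adjusted p = 0.0152) and 2.40-fold in TIAR KO MEF (1.26 ± 0.16, adjusted p = 0.0117). The TIAR KO call was lost with the processed signal (1.26), under a common median (0.80), and without the second WT or the first TIAR KO array. With any 1 array left out the TIAR KO change stayed between 1.13 and 1.40.

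Fbn2, the fibrillin most prominent in embryonic tissue, is on chromosome 18 and is 1 of the 3 genes described without a test. Its brighter probe was near background in WT MEF, at 6.58 and 6.65, and reached 9.52 and 9.67 in TIA1 KO and 10.44 and 10.43 in TIAR KO MEF. Because neither WT array was well above background, only a lower limit of the fold can be given for this probe. With the processing used here, TIA1 KO MEF were at least 6.40-fold above WT, and the limit for TIAR KO MEF was 11.4-fold. For these limits, WT was put at the lowest signal rated well above background on each array, or at the measured signal if that was brighter. The limits depend on the processing. Under scaling to a common median the measured log2 fold changes were 2.03 (TIA1 KO), below its limit, and 3.59 (TIAR KO), above it. With the authors' log2 values they were 2.545 and 3.45, both below. With the processed signal they were larger, 5.92 and 6.64. The second Fbn2 probe gave 6.73 and 6.64 in WT, 9.58 and 9.36 in TIA1 KO and 9.72 and 8.27 in TIAR KO MEF. Its log2 fold changes were 2.79 (TIA1 KO) and 2.31 (TIAR KO), the latter below the limit from the brighter probe. Both probes thus separated the knockouts from WT, but they disagreed on which knockout was higher, with TIAR KO minus TIA1 KO at 0.84 ± 0.16 for the first and -0.48 ± 0.52 for the second.

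Mfap5 encodes MAGP-2, a glycoprotein that binds fibrillin microfibrils. It gave 6.73 and 6.95 in WT MEF, where only the second array was well above background, 14.22 and 14.66 in TIA1 KO and 8.36 and 8.49 in TIAR KO MEF (chr6:122478591-122478650, mm9). The groups did not overlap and the TIA1 KO arrays stood far above the others. It rose by 7.60 ± 0.22 on the log2 scale in TIA1 KO MEF (limma adjusted p = 0.0036) and 1.59 ± 0.16 in TIAR KO MEF (adjusted p = 0.0052). With WT near background, both values rest on a reference level that 1 of the 2 arrays could measure.

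Elastin, the rubber-like core of the fibre, stayed at the edge of detection. Eln (chr5:135179129-135179188, mm9) gave 7.08 and 7.49 in WT, 6.60 and 6.71 in TIA1 KO and 7.03 and 7.04 in TIAR KO MEF, and only the second WT array was well above background. Neither the change of -0.63 ± 0.21 in TIA1 KO (limma adjusted p = 0.153) nor that of -0.25 ± 0.19 in TIAR KO MEF (adjusted p = 0.560) passed the test. At these intensities a difference in Eln was not detectable, and no lower limit of a fold can be set for TIA1 KO MEF.

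The fibulins are calcium-binding glycoproteins that bridge microfibrils, elastin and basement membranes. Fbln2, which binds fibrillin-1 and elastin, gave 12.39 and 12.16 in WT, 17.51 and 17.61 in TIA1 KO and 15.68 and 15.60 in TIAR KO MEF (chr6:91222118-91222177, mm9). WT, TIAR KO and TIA1 KO arrays formed 3 separate steps. The rise was 38.9-fold in TIA1 KO MEF (log2 fold change 5.28 ± 0.17, limma adjusted p = 0.0036) and 10.3-fold in TIAR KO MEF (3.36 ± 0.16, adjusted p = 0.0005).

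Fbln1, a fibulin found in the elastin core and in basement membranes, changed less. Its brightest probe (chr15:85081927-85081986, mm9) gave 10.40 and 10.53 in WT, 12.38 and 12.37 in TIA1 KO and 11.58 and 11.65 in TIAR KO MEF. It rose by 1.90 ± 0.15 on the log2 scale in TIA1 KO MEF (limma adjusted p = 0.0164) and 1.15 ± 0.14 in TIAR KO MEF (adjusted p = 0.0113). Its other 2 probes moved alike, with 2.00 and 1.66 in TIA1 KO and 1.39 and 1.10 in TIAR KO MEF, and all 3 passed in both comparisons. For the brightest probe the TIA1 KO call was lost with the replicate number as a block (limma adjusted p = 0.0568), and the TIAR KO call with the processed signal, under a common median, and without the first WT array or either TIAR KO array.

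Efemp2 encodes fibulin-4, which tethers lysyl oxidase to tropoelastin. It gave 15.28 and 14.48 in WT, 16.51 and 16.35 in TIA1 KO and 16.64 and 16.52 in TIAR KO MEF (chr19:5481762-5481821, mm9). The WT arrays lay below all 4 knockout arrays and differed more between themselves than those did. The change of 1.70 ± 0.29 in TIAR KO MEF passed the test (limma adjusted p = 0.0272), and that of 1.55 ± 0.32 in TIA1 KO MEF did not (adjusted p = 0.0883). The TIA1 KO change did pass with the filter on dim probes and with all 3 groups fitted together. The TIAR KO call was lost with the processed signal (1.41) and when either TIAR KO array was left out. With any 1 array left out the TIAR KO change stayed between 1.30 and 2.10.

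Efemp1 encodes fibulin-3, a matrix protein of connective tissue, and was chosen for its rise. It gave 6.33 and 6.30 in WT MEF, neither well above background, 14.85 and 15.13 in TIA1 KO and 7.74 and 7.34 in TIAR KO MEF (chr11:28826647-28826706, mm9). With the processing used here, TIA1 KO MEF were thus at least 276-fold above WT and TIAR KO MEF at least 1.57-fold. The measured log2 fold changes, 8.68 ± 0.18 and 1.23 ± 0.18, are taken from a WT level near background. They came to 7.57 and 0.81 under scaling to a common median, where the TIA1 KO value is below that limit. With the processed signal they were 12.24 and 3.11.

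Fbln5, the fibulin that binds integrins and helps to organise elastin on microfibrils, was chosen in the same way. Its brighter probe (chr12:102988153-102988212, mm9) gave 9.02 and 9.50 in WT, 15.09 and 14.94 in TIA1 KO and 11.96 and 12.84 in TIAR KO MEF. This corresponds to 54.2-fold in TIA1 KO (log2 5.76 ± 0.23) and 8.86-fold in TIAR KO MEF (3.15 ± 0.34). Under scaling to a common median the log2 fold changes were 4.35 and 2.80. The second Fbln5 probe (chr12:102984878-102984937) gave between 6.65 and 7.11 on all 6 arrays and was not well above background on any of them. The rise of Fbln5 is therefore carried by 1 probe alone.

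Lox encodes lysyl oxidase, the enzyme that starts the cross-links of elastin and collagen, and lies on chromosome 18. It gave 10.08 and 9.82 in WT, 14.35 and 14.24 in TIA1 KO and 12.27 and 12.05 in TIAR KO MEF. As for Fbln2, the arrays fell into 3 separate steps. Lox rose 20.3-fold in TIA1 KO MEF (log2 fold change 4.34 ± 0.17, limma adjusted p = 0.0049) and 4.62-fold in TIAR KO MEF (2.21 ± 0.17, adjusted p = 0.0024). Its second probe moved by 4.47 (TIA1 KO) and 2.23 (TIAR KO) and passed in both.

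**Figure D2:**
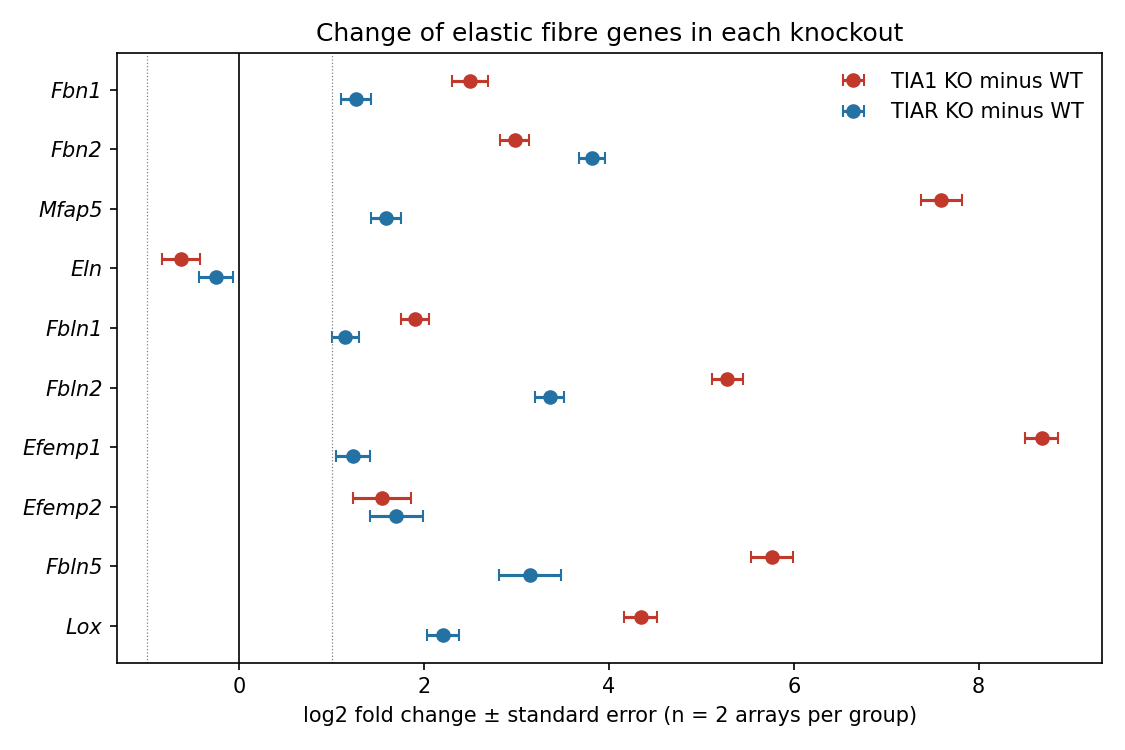
Log2 fold change against WT (x axis, points) with its standard error (bars, n = 2 arrays per group) of the 10 genes, in TIA1 KO (red) and TIAR KO MEF (blue), with dotted lines at a fold of 2. The points of Efemp1 at 8.68 and of Mfap5 at 7.60 in TIA1 KO MEF lie farthest to the right, and those of Eln lie left of 0.

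The same WT arrays serve both comparisons with WT, so the knockouts were also compared with each other directly. Of the 7 tested genes, 3 were lower in TIAR KO than in TIA1 KO MEF and 4 did not pass, with 3.35% of all probes called, 1.63% lower. Mfap5 was 64.5-fold lower (log2 difference -6.01 ± 0.22, limma adjusted p = 0.0057), Lox 4.39-fold lower (-2.14 ± 0.17, adjusted p = 0.0170) and Fbln2 3.79-fold lower (-1.92 ± 0.15, adjusted p = 0.0170) in TIAR KO MEF. Fbn1 (-1.23 ± 0.21, adjusted p = 0.0708), Fbln1 (-0.76 ± 0.15, adjusted p = 0.0930), Efemp2 (0.15 ± 0.16, adjusted p = 0.589) and Eln (0.38 ± 0.15, adjusted p = 0.242) did not pass. For the genes described without a test, the difference was -7.45 ± 0.22 for Efemp1 and -2.61 ± 0.34 for Fbln5. No probe on the array was called once either TIAR KO array was left out, although with any 1 array left out Mfap5 stayed between -6.23 and -5.79, Lox between -2.25 and -2.02 and Fbln2 between -1.97 and -1.87. Lox and Fbln2 also lost the call with the processed signal, where their differences were close to these, and under scaling to a common median, at -1.05 and -0.89.

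The order of the levels was the same in most of these genes. 7 of the 10 (Fbn1, Mfap5, Fbln1, Fbln2, Efemp1, Fbln5 and Lox) stood in the order WT, TIAR KO, TIA1 KO with no overlap between arrays, or 5 of the 7 tested, as did 4.59% of all probes, although Fbln1 was 0.32 higher in TIAR KO than in TIA1 KO MEF under scaling to a common median. Of these steps, the one between the knockouts passed the test for Mfap5, Lox and Fbln2 but not for Fbn1 and Fbln1. Fbn1 did pass with the filter on dim probes and with all 3 groups fitted together. No probe on the array passed between the knockouts with the replicate number as a block. The order was not settled for Fbn2, whose probes disagreed on the knockouts, for Efemp2, at 0.15 ± 0.16 between them, or for Eln, near background throughout. All 10 genes had groups without overlap in each comparison, which is also so for 65% of all probes in TIA1 KO against WT, 48.8% in TIAR KO against WT and 59.7% between the knockouts.

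The scaling of the arrays changed the size of the rise. Under scaling to a common median the TIA1 KO changes of Fbn1 and Fbln1 shrank to 0.94 and 0.44 and were not called, whereas Fbln2, Lox and Mfap5 were still called, in a setting that called 15801 of the 55681 probes, 11.9% of them higher. In TIAR KO MEF Fbn1 and Fbln1 came to 0.80 and 0.76 under the same scaling and were not called either. With the processed signal no probe on the array was called in TIA1 KO MEF, and so none of the 7 tested genes. The log2 fold changes of Fbln2 (5.18), Lox (4.37), Fbn1 (2.38) and Fbln1 (1.85) were close to those above, and that of Mfap5 (9.69) was larger. However, the median of all probes in that setting, given above beside Eln, was higher than the value of Fbln1, although lower than the others. The limma adjusted p was 0.0529 for Fbln2, Lox and Mfap5. Across the alternatives, Fbln2 ranged from 3.75 to 5.40 and Lox from 2.84 to 4.47 in TIA1 KO MEF, and from 2.86 to 3.47 and from 1.79 to 2.37 in TIAR KO MEF. All genes but Eln and Efemp2 kept their direction against WT under every alternative tried in TIA1 KO MEF, and all 10 did in TIAR KO MEF.

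**Figure D3:**
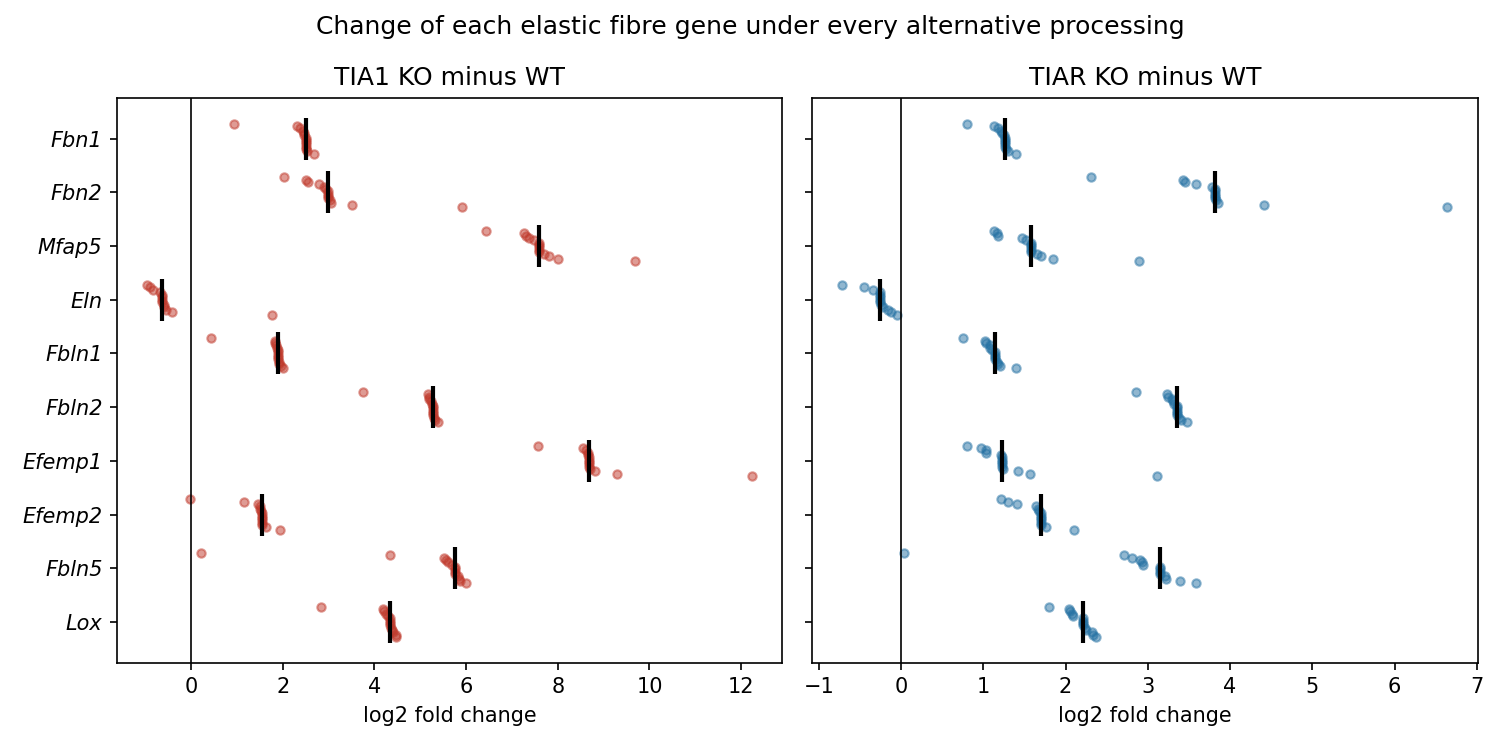
Log2 fold change against WT (x axis) of the 10 genes in TIA1 KO MEF (left) and TIAR KO MEF (right), with the value reported as a black bar and each alternative processing as a point. Points for Eln and Efemp2 in TIA1 KO MEF reach 1.77 and -0.02, across 0 from the reported value, and the Fbln5 points at 0.22 and 0.03 are those of its second probe.

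A list of 31 further genes of microfibrils, cross-linking and elastin turnover was read in the same fits. In TIA1 KO MEF 6 of the 31 rose, 2 fell and 23 did not pass (25.8% called, against 3.54% of all probes and 7.54% of those well above background, with a median log2 fold change of 0.21). In TIAR KO MEF 8 rose, 6 fell and 17 did not pass (45.2% called, against 5.76% and 12.7%, with a median of 0.11). The partner genes were thus called in both directions. None of the 31, and no other probe on the array, was called in TIA1 KO MEF without either WT array or with the processed signal of the scanner software, and the authors' log2 values kept 4 of the 8 calls, those of Ltbp4, Mfap2, Loxl1 and Mmp2. In TIAR KO MEF the calls of Adamts10, Loxl1, Ltbp1, Ltbp3 and Mfap2 were each lost when at least 3 of the 4 arrays were left out in turn, and the other 9 were kept under each of these alternatives and under scaling to a common median. The sizes moved as well, in TIA1 KO MEF under a common median to 1.48 (Ltbp4), 2.92 (Mfap2), -4.19 (Ltbp2) and -4.82 (Mmp2), and in TIAR KO MEF with the processed signal to 3.64 (Emilin1), 5.07 (Fbln7), 3.82 (Hmcn1), -4.22 (Adamtsl5) and -5.09 (Mmp2).

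Among the 11 genes of microfibril and latent TGF-beta binding proteins, 3 rose and 1 fell in TIA1 KO MEF, and 5 rose and 4 fell in TIAR KO MEF. Ltbp4, which works with fibulin-5 in elastin assembly, gave 10.03 and 10.10 in WT, 13.03 and 13.09 in TIA1 KO and 13.92 and 13.78 in TIAR KO MEF. It rose 7.97-fold in TIA1 KO MEF (SE 0.15 on the log2 scale, limma adjusted p = 0.0064) and 13.8-fold in TIAR KO MEF (SE 0.15, adjusted p = 0.0004). Ltbp2, which binds fibrillin and fibulin-5, gave 13.76 and 13.06 in WT, 11.02 and 10.39 in TIA1 KO and 10.42 and 10.17 in TIAR KO MEF. Both knockouts were below WT, with a fall of 2.71 ± 0.36 in TIA1 KO (adjusted p = 0.0430) and of 3.11 ± 0.27 in TIAR KO MEF (adjusted p = 0.0031).

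Mfap2, which encodes MAGP-1, the close relative of MAGP-2, gave 8.24 and 8.61 in WT, 12.09 and 12.50 in TIA1 KO and 7.51 and 7.29 in TIAR KO MEF. It rose by 3.87 ± 0.24 in TIA1 KO MEF (limma adjusted p = 0.0092) and was lower by 4.89 in TIAR KO than in TIA1 KO MEF (adjusted p = 0.0070), a call lost without either TIAR KO array, at -5.00 and -4.79. Its change of -1.02 ± 0.19 in TIAR KO MEF against WT passed (adjusted p = 0.0367), but lost the call when any 1 of the 4 arrays was left out, and its second probe gave -0.25. Emilin1 (2.56), Fbln7 (1.72), Hmcn1 (1.47) and Ltbp3 (1.22) rose in TIAR KO MEF, and Emilin2 (-2.51) and Ltbp1 (-1.15) fell, with limma adjusted p between 0.00255 and 0.0274. The second, dim Ltbp1 probe went the other way, with means of 7.40 in WT and 7.78 in TIAR KO MEF. The second, dim Hmcn1 probe gave means of 6.69 and 7.31. EMILIN proteins sit at the interface of elastin and microfibrils. Fbln7 and Hmcn1 were not well above background in WT MEF, so that their rise was at least 2.99-fold and at least 2.31-fold. Ltbp3 also passed in TIA1 KO MEF, at 1.03, but turned to -0.54 under scaling to a common median, and its second probe gave -0.27 in TIAR KO MEF.

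Of the 7 genes of cross-linking, 3 rose in TIA1 KO MEF, 2 rose in TIAR KO MEF and none fell. Loxl1, the lysyl oxidase relative needed to renew elastin, gave 13.28 and 13.64 in WT, 15.53 and 15.80 in TIA1 KO and 14.75 and 15.02 in TIAR KO MEF. It rose by 2.21 ± 0.21 in TIA1 KO (limma adjusted p = 0.0234) and 1.43 ± 0.20 in TIAR KO MEF (adjusted p = 0.0144). Loxl2, a lysyl oxidase relative that cross-links basement membrane collagen, gave 11.01 and 11.27 in WT, 12.84 and 13.17 in TIA1 KO and 14.43 and 14.79 in TIAR KO MEF, and was thus highest in TIAR KO MEF, unlike Lox. It rose by 1.86 ± 0.20 in TIA1 KO (adjusted p = 0.0304) and by 3.47 ± 0.19 in TIAR KO MEF (adjusted p = 0.0008), and was higher by 1.61 in TIAR KO than in TIA1 KO MEF (adjusted p = 0.0475). That difference lost the call without either TIAR KO array, with the processed signal (1.82) and with the authors' log2 values (1.54). It was larger, at 2.73, and called under scaling to a common median. Under scaling to a common median, the TIA1 KO changes of Loxl1 (0.64) and Loxl2 (0.28) were not called, and Loxl4, which passed at 1.03, turned to -0.55. The second Loxl4 probe, also bright, rose less than 2-fold in TIA1 KO MEF, with means of 13.26 in WT and 14.01 in TIA1 KO MEF. It was lower in TIAR KO MEF, at 12.31, where the first probe gave 12.86 in WT and 12.95 in TIAR KO MEF. The TIAR KO call of Loxl1 was lost under a common median (0.95), with the processed signal (1.01), and without the first WT array or either TIAR KO array.

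Of the 8 ADAMTS and ADAMTS-like genes, whose products bind fibrillin microfibrils, none was called in TIA1 KO MEF, and 1 rose and 1 fell in TIAR KO MEF. Adamts10 rose by 1.13 (limma adjusted p = 0.0148), a call lost without the second WT array or either TIAR KO array, and its second, dim probe gave 0.02. Adamtsl5 gave 11.08 and 11.02 in WT, 11.35 and 11.62 in TIA1 KO and 7.94 and 8.05 in TIAR KO MEF, a fall of 3.05 in TIAR KO MEF (adjusted p = 0.0005). Of 5 elastin-degrading proteases only Mmp2, gelatinase A, was called. It gave 11.82 and 11.99 in WT, 7.56 and 8.21 in TIA1 KO and 7.86 and 8.05 in TIAR KO MEF. The TIA1 KO arrays were not well above background, so only a limit of the fall can be given for them. Set in the way described for Fbn2, that limit was 13.8-fold (adjusted p of the measured change = 0.0119). It is not a firm minimum, because without the first TIA1 KO array the log2 fold change was -3.69, a smaller fall. In TIAR KO MEF the level of Mmp2 was 15.5-fold below WT (log2 fold change -3.95, adjusted p = 0.0004).

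**Figure D4:**
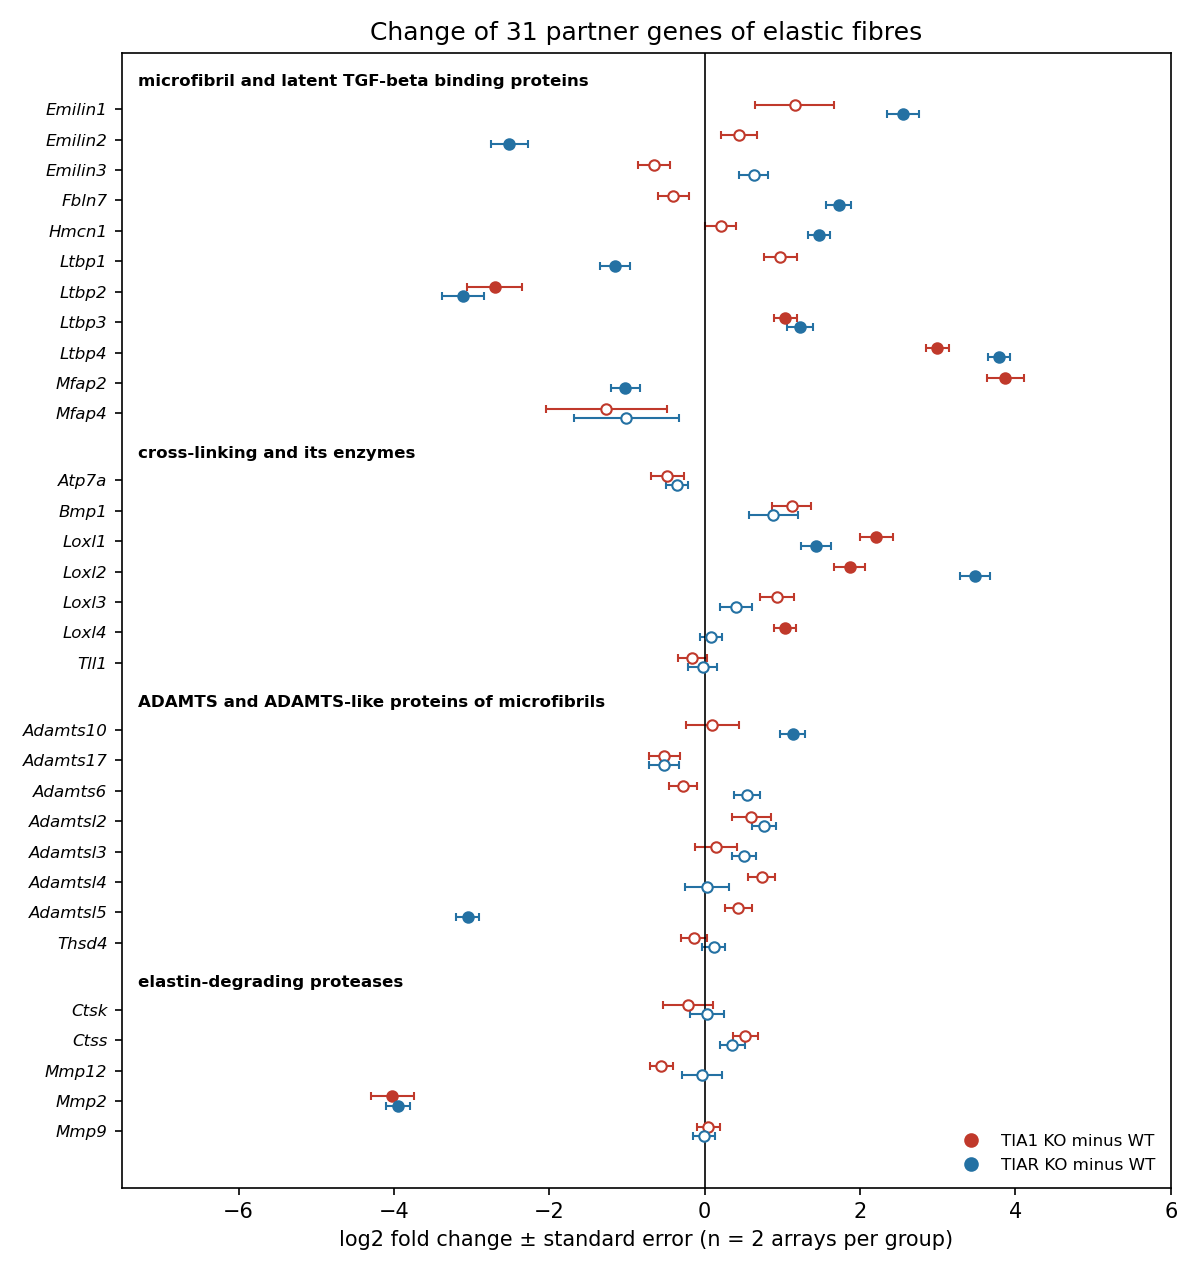
Log2 fold change against WT (x axis, points) with its standard error (bars, n = 2 arrays per group) of the 31 partner genes by group, in TIA1 KO (red) and TIAR KO MEF (blue). Filled points were called and hollow ones were not. Ltbp4 lies right of 0 and Ltbp2 and Mmp2 left of 0 in both knockouts, whereas Mfap2 lies at 3.87 in TIA1 KO and at -1.02 in TIAR KO MEF.

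Some markers of fibroblasts and of smooth muscle also rose in both knockouts, and their part in the changes of the elastic fibre genes was not tested. Of 7 fibroblast markers, 4 rose in TIA1 KO MEF and 6 did in TIAR KO MEF, and their summed signal was 318997 and 304778 in WT, 861730 and 807781 in TIA1 KO and 900681 and 822654 in TIAR KO MEF, where Vim, the intermediate filament vimentin, was brightest on the WT arrays and Col1a2, a chain of collagen I, on the knockout arrays. Pdgfra was not well above background on either WT array, and Thy1 was so on 1 of 2 WT arrays, on no TIA1 KO array and on both TIAR KO arrays. The lines therefore differ in markers that define fibroblasts. Of 5 smooth muscle markers, 2 rose in TIA1 KO (Acta2 by 4.85 and Tagln by 2.93) and 4 in TIAR KO MEF (Acta2 by 5.54, Tagln by 3.45, Cnn1 by 3.30 and Des by 1.15), with a summed signal of 15847 and 20349 in WT, 267359 and 296033 in TIA1 KO and 476828 and 422547 in TIAR KO MEF, where Tagln was brightest on the WT arrays and Acta2 on the knockout arrays. Myh11, the myosin that defines mature smooth muscle, was not well above background on any array.

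Of 6 epithelial and mesothelial markers, 1 rose in TIA1 KO MEF (Krt8 by 1.23), and 4 rose (Upk3b at least 143-fold, Krt18 by 2.72, Cdh1 at least 2.53-fold and Krt8 by 1.23) and Msln fell (by 1.62) in TIAR KO MEF. Their summed signal was 91257 and 57202 in WT, 242752 and 210382 in TIA1 KO and 43617 and 41388 in TIAR KO MEF, with Msln, the mesothelial surface protein mesothelin, the brightest on every array. The sum was lower in TIAR KO than in WT MEF although 4 of the markers rose, so it does not describe the set. None of 4 endothelial and none of 4 macrophage markers was called against WT in either knockout. Cdh5, Tie1, Ptprc and Emr1 were not well above background on any array, whereas the endothelial receptor gene Kdr and the lysosomal gene Cd68 were so on all 6 arrays by their brighter probes. Pecam1 was well above background on the WT and TIAR KO arrays, and Csf1r on those and on 1 TIA1 KO array.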

How the data were processed

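Transcripts of MEF of 3 genotypes (WT, TIA1 KO, TIAR KO) were measured on 6 arrays, grouped by the sample titles, 2 per group. The authors deposited, per array, the scanner output of Agilent Feature Extraction 10.7.3.1, with the mean intensity and local background of each spot, quality flags and probe positions on mm9, and a table of normalized log2 values. No annotation of mm9 was used, so exons are not named. The study's methods name normexp, loess, quantile normalization and moderated statistics, and the submitters' processing notes name limma.

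Here the mean intensities, less the median local background, were corrected by normexp (offset 50), put on a log2 scale, fitted by loess against the mean array in 1 pass and quantile normalized. Control and outlier spots were left out and spots of a probe averaged. A probe counted as well above background where 50% or more of its spots had that rating. Each comparison was fitted with limma (lmFit, eBayes) on its own 4 arrays, without covariates, Benjamini-Hochberg adjusted over 55681 probes and called at an adjusted p under 0.05 and a fold above 2. The fits were also run on simulated data with planted changes larger than many of those called here. That run held no differences of strain or slide row, and it does not measure how well smaller changes are found. The authors' log2 values served as an alternative. Those of the 15 probes differed from the values used here by a median of 0.161 and at most 0.605 in log2.

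All 10 genes are named, with every partner gene called in a comparison with WT and Tia1, Tial1 and Gapdh. A gene was read from its brightest probe. The genes and lists were chosen with earlier results of these data known. From 16000 to 26254 probes per array were well above background. Precision is limited by the number of arrays. Alternatives were the scanner's processed signal scaled to its 75th percentile, an offset of 16, no loess, a common median, the authors' table, outlier spots kept, a filter on dim probes, the second brightest probe, all 3 groups together, a replicate block and each array left out. R 4.3.3, limma 3.58.1, data.table (1.17.8), Python 3.11.15, numpy 2.4.6, pandas 2.3.3 and matplotlib 3.10.9 were used.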

Additional observations from a re-analysis of the deposited data

How the results depend on the processing

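Against WT, 137 of 139 values of the 10 genes under the alternatives kept their direction in TIA1 KO and all 139 in TIAR KO MEF, as did 135 of 139 between the knockouts. The median of all probes in TIA1 KO against WT moved from -0.09 to 1.98 with the processed signal and to -0.67 under a common median, and between the knockouts from 0.05 to -1.85 and 0.63. With the processed signal Eln gave 1.77 in TIA1 KO against WT and -2.48 between the knockouts, and Efemp2 gave -0.086 between the knockouts. Under a common median Efemp2 gave -0.024 in TIA1 KO against WT and Fbln1 0.32 between the knockouts. The second Fbn2 probe gave -0.48 between the knockouts. The causes were not tested.

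In TIA1 KO against WT, 1969 probes and 5 of the tested genes were called. The processed signal called 0 and 0 (27765 probes at an unadjusted p under 0.05), a common median 15801 (11.9% of them higher, against 61.6%) and 3, the authors' log2 values 1309 probes and the fit of all 3 groups 3986. Leaving out an array gave from 0 to 10735 probes and from 0 to 5 genes, with 0 without WT replicate 1 (7202 probes at an unadjusted p under 0.05 in limma) and without WT replicate 2 (7415), and 3068 and 10735 without TIA1 KO array 1 and 2. In TIAR KO against WT the count of 3206 probes stayed between 2307 and 4139, 34.4% of the latter higher under a common median against 58.8%. The 6 genes called came to 3 with the processed signal, 4 under a common median, and from 3 to 5 with an array left out. Between the knockouts 1866 probes and 3 genes were called. The processed signal left 1 gene and 1509 probes, 8.28% higher against 51.3%. A common median gave 8307 probes, 87.2% higher, and 1 gene, the filter on dim probes 2910, and the fit of all 3 groups 3183. Leaving out an array gave from 0 to 10086 probes and from 0 to 4 genes, with 0 without either TIAR KO array (6318 and 6402 at an unadjusted p under 0.05), and 3422 and 10086 without TIA1 KO array 1 and 2.

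The deviations of arrays with the same replicate number correlated by 0.08, 0.03 and -0.07 in the 3 comparisons, so the numbers do not pair the arrays. With the replicate number as a block, 671 probes and 4 genes were called in TIA1 KO against WT, 3308 and 6 in TIAR KO against WT, and 0 and 0 between the knockouts, where 10684 probes had an unadjusted p under 0.05 in limma. All member values are limited by signal over background for Eln, and in WT MEF for Fbn2, Efemp1 and Mfap5.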
